A study of Mus musculus with 4 samples.

Results

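Lysosomes are the acid compartments in which proteases, glycosidases and lipid-handling proteins break down material that reaches them from outside the cell or from the cytoplasm. A membrane ATPase pumps protons into them, and heavily glycosylated membrane proteins line their inner face. Autophagy feeds them from within: a membrane grows around cytoplasm, carries lipid-linked proteins of the Atg8 family, takes up cargo through receptors that bind those proteins, and then fuses with the lysosome. The transcription factors Tfeb and Tfe3 bind a short palindrome in the promoters of many of these genes, and in skeletal muscle the pathway matters for turnover of glycogen, mitochondria and protein.

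The genes described here are 34 lysosome and autophagy genes, chosen by name, of 12895 genes that could be named in the series. All 34 were found, and all 34 reached at least 1 FPKM in at least 1 library. They fall into 8 classes: 5 proteases, 6 lumenal glycosidases and lipid-handling proteins, 4 membrane proteins, 5 proton pump subunits, 2 transcription factors, 5 genes of autophagosome formation, 4 members of the Atg8 family and 3 cargo receptors.

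The cells were C2C12, a mouse skeletal myoblast line (strain C57BL/6 per the labels) whose cells leave the cycle and fuse to myotubes once serum is withdrawn. Polyadenylated RNA was sequenced as paired ends from cells growing exponentially in 20% fetal bovine serum (labelled -24 h, called growth here) and from cells that were given low serum at confluence and lysed 60 h, 120 h or 168 h later. There was 1 library for each time, so no difference below has a replicate check and none was tested. In the order of time the libraries held 28513976, 48228887, 24488681 and 43845262 fragments, and the 120 h library was the shallowest. The cells were one cell line on plates, and fewer cells expressing a gene and less RNA per cell cannot be told apart in bulk RNA.

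Levels are in FPKM, a fragment count divided by transcript length and by the size of the library, summed over the assembled transcripts of a gene. The ± is the distance to the authors' confidence limit, which covers counting and assignment of fragments but no variation between cultures. A gene is called higher or lower where its FPKM values, raised by 1, differ 2-fold or more between 2 libraries, with the higher at 1 FPKM or above and no overlap of the intervals. FPKM divides by the length that happened to be assembled, so other measures stand beside the sum where they differ. These are the FPKM through the introns of a gene, and its fragments over the union of its exons from all 4 libraries per 1000000 fragments sequenced (FPM). The FPKM through the introns is built from the same transcript FPKM. It usually equals the sum where a gene was assembled as 1 spliced transcript, and it does not remove the effect of assembled length. Fold changes without a stated scale are plain ratios of summed FPKM.

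The culture changed as a muscle line does after serum withdrawal. The summed level of 8 skeletal muscle markers was 693, 9902, 13845 and 12883 FPKM in growth, at 60 h, at 120 h and at 168 h, and that of 4 markers of dividing cells was 168, 76.9, 28.6 and 12.9 FPKM. Macrophages are rich in lysosomes, so 10 of their markers were also read. Between 3 and 4 of the 10 were assembled in a library, their sum lay between 11.5 and 16.0 FPKM, and Adgre1, Ptprc, Lyz2, Mpeg1, Tyrobp and Fcer1g were assembled in no library. Cd14 had 10.4, 10.2, 6.37 and 7.02 FPKM in growth, at 60 h, at 120 h and at 168 h. Cd68 had 0.308, 4.15, 4.83 and 4.41 FPKM, and Csf1r and Itgam reached at most 1.03 FPKM.

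At 168 h, 13 of the 34 members were called higher than in growth, against a background of 15.6% of all genes, and 1 was called lower, against 18.6%. By the sum and the introns together 12 members were higher, against 11.2% of all genes, and 1 lower, against 13.5%. Both measures use the same transcript FPKM, so the second is no independent check of the first. The members called higher were the protease Ctsd, the lumenal proteins Gaa, Hexa, Neu1 and Psap, the cholesterol transporter Npc1, Tfeb, the autophagy genes Ulk1 and Wipi1, the Atg8 proteins Map1lc3a, Map1lc3b and Gabarap, and the mitophagy receptor Bnip3. Gabarap had no transcript of its own in growth, and its call by the sum rests on that absence. Npc2 was the member called lower, and that call was absent by fragments over the union of exons. The median log2 ratio of the members was 0.84, against -0.11 for all 12568 genes tested, and 28 of the 34 lay above 0.

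Fewer members were called at each single step. At 60 h, 5 members were called higher than in growth, against 11.1% of all genes, and 4 lower, against 15.4%, and by both measures 5 higher, against 7.29%, and 3 lower, against 8.95%. Between 120 h and 60 h, 3 members were called higher, against 12.4% of all genes, and 1 lower, against 3.87%, and by both measures 2 higher, against 2.79%, and 0 lower, against 2.00%. Between 168 h and 120 h, 2 members were called higher, against 4.16%, and 1 lower, against 10.1%, and by both measures 2 higher, against 2.11%, and 0 lower, against 2.45%. Both of those higher calls were of genes with no transcript of their own at 120 h, Mcoln1 and Atg7. Of the 31 members assembled in every library, 12 were higher in each library than in the one before it by every measure that could be had, against 6.72% of the 10727 genes assembled in every library. These were Ctsd, Ctsz, Gaa, Hexa, Psap, Npc1, Atp6v0a1, Tfeb, Ulk1, Map1lc3a, Map1lc3b and Sqstm1. Under a scaling by median ratios, which moved the all-gene median at 120 h against 60 h to -0.02 where it was 0.15, the ratio at that step fell below 0 for Ctsz, Npc1 and Atp6v0a1. Under that scaling the median of the members at 120 h against 60 h was 0.04, with 20 of 33 above 0 and 13 below, so a higher level of the members at that step depends on the scaling.

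**Figure D1:**
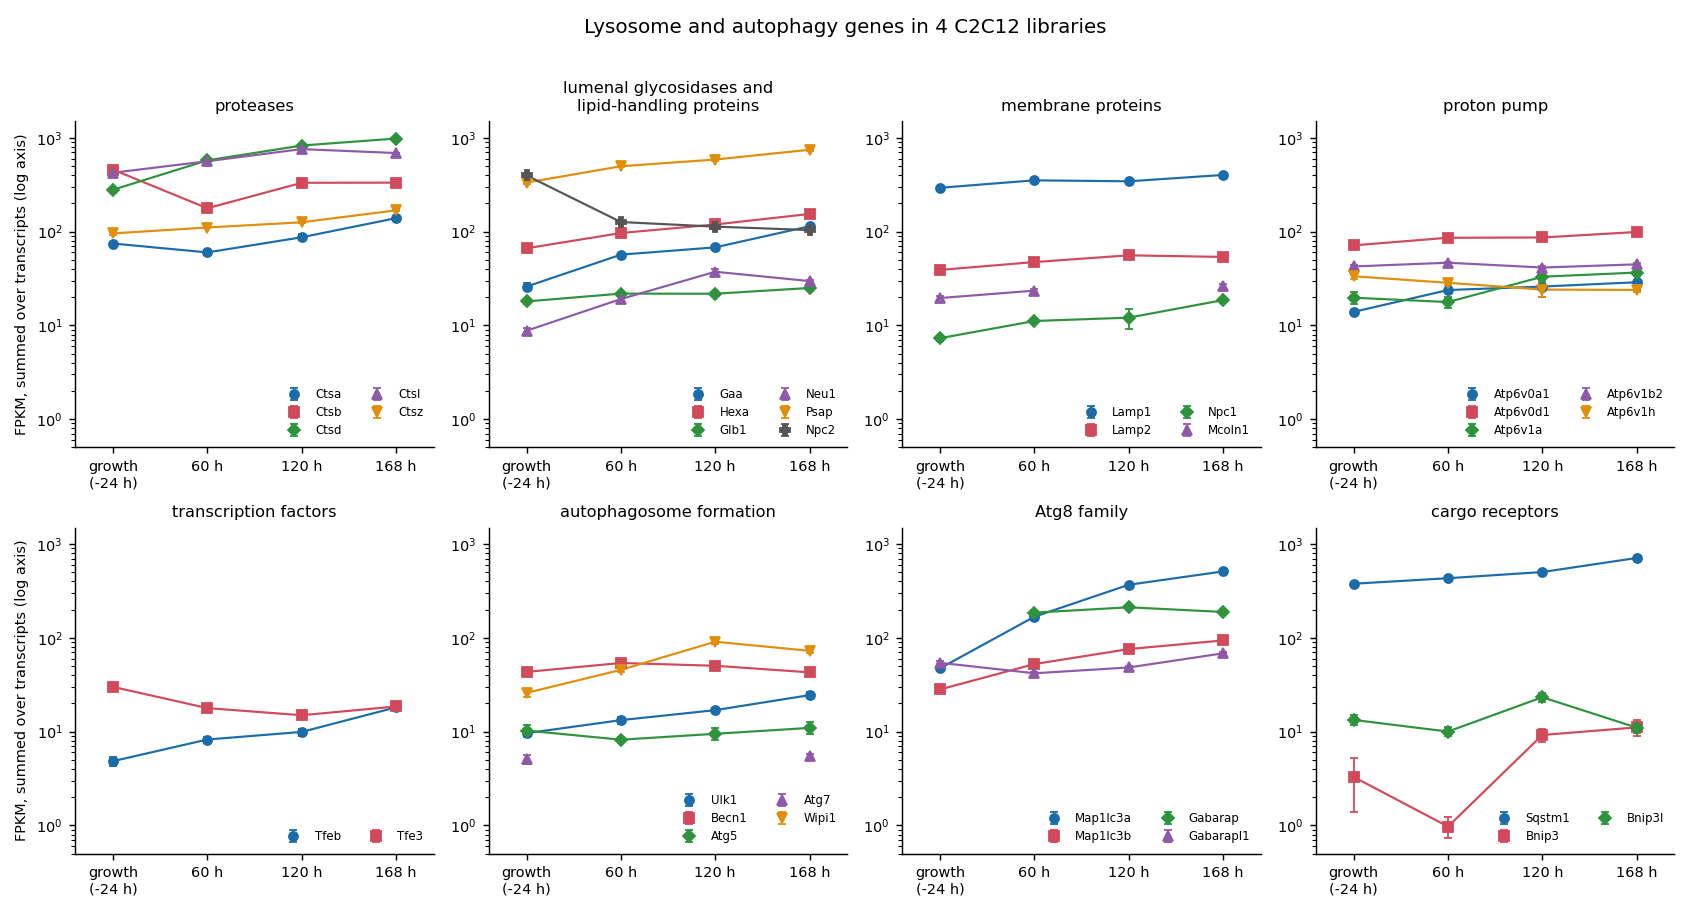
FPKM of the 34 members (vertical log axis) in growth, at 60 h, at 120 h and at 168 h (horizontal axis), 1 panel per class, with bars for the authors' confidence limits and 1 library per point. A missing point is a gene with no transcript of its own in that library. Ctsd stands at 983 FPKM at 168 h and 279.6 FPKM in growth, while the 5 proton pump subunits stay between 13.9 and 99.1 FPKM throughout.

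The proteases were the most strongly expressed class, with a summed level of 1332, 1487, 2131 and 2312 FPKM in growth, at 60 h, at 120 h and at 168 h. Their order changed: in growth the highest was Ctsb, a cysteine protease, and in each later library it was Ctsd, the aspartic protease cathepsin D. Ctsd, at chr7:149561813-149573976 on the minus strand in the files' coordinates, had 279.6 ± 5.37, 575 ± 5.21, 828 ± 7.99 and 983 ± 7.03 FPKM in growth, at 60 h, at 120 h and at 168 h. It was 2.06-fold higher at 60 h and 3.51-fold higher at 168 h than in growth, both called, and each interval lay clear of the others. It was the only protease called higher at 168 h, 1 of 5. Of the 50-base words of the annotated Ctsd transcripts, 32.4% also occur in other annotated genes, most often Gm49369. For Ctsl the share was 26.3%, most often in Gm47123. Some fragments of both could belong to those genes, which was not tested.

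Ctsl, the cysteine protease cathepsin L, had 424 ± 6.45, 563 ± 5.66, 758 ± 9.34 and 689 ± 6.64 FPKM across the same libraries. Its highest level was at 120 h, but under median-ratio scaling the log2 ratio at 168 h against 120 h was 0.02, so that peak depends on the scaling. At 1.62-fold above growth at 168 h it was not called. Ctsz, a carboxypeptidase, had 95.7 ± 2.91, 111 ± 2.37, 126 ± 3.68 and 169 ± 3.10 FPKM and a 1.76-fold ratio at 168 h against growth, which the rule did not call. Ctsa, the serine carboxypeptidase that also protects Neu1 and Glb1 in a complex, had 74.7 ± 1.98, 60.0 ± 3.81, 87.0 ± 6.21 and 139 ± 8.06 FPKM. Its 1.86-fold ratio at 168 h against growth fell short of the rule, and its lower level at 60 h was absent on the fragment scale, where 60 h stood at 225 FPM and growth at 208 FPM.

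Ctsb, the cysteine protease cathepsin B, showed how far the assembled length enters these values. It was called lower at 60 h, at 177 ± 1.75 FPKM against 458 ± 5.48 FPKM in growth, and had 332 ± 4.08 and 333 ± 2.54 FPKM at 120 h and 168 h. Every library held the same 9 introns, but the last exon was assembled to 3768 bases at 60 h against 1100 bases in growth. In FPM, Ctsb had 981, 854, 1162 and 1571 in growth, at 60 h, at 120 h and at 168 h, so the count at 60 h was 0.871 times that in growth and the call was lost. At 168 h against growth the direction itself turned, with a ratio of 0.727 in FPKM and of 1.60 in fragments. Only assembled exons are counted on either scale.

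Npc2, the soluble lumenal protein that hands cholesterol to Npc1, was the other gene of this kind. Its level was 397 ± 6.41 FPKM in growth and 127 ± 1.81, 113 ± 2.42 and 104 ± 1.71 FPKM at 60 h, 120 h and 168 h, and both 60 h and 168 h were called lower than growth. Its last exon was 2657 bases at 60 h and 941 bases in growth. In FPM, Npc2 had 579, 405, 358 and 336 across the 4 libraries, a ratio of 0.580 at 168 h against growth that the rule does not call, in the same direction as the FPKM.

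**Figure D2:**
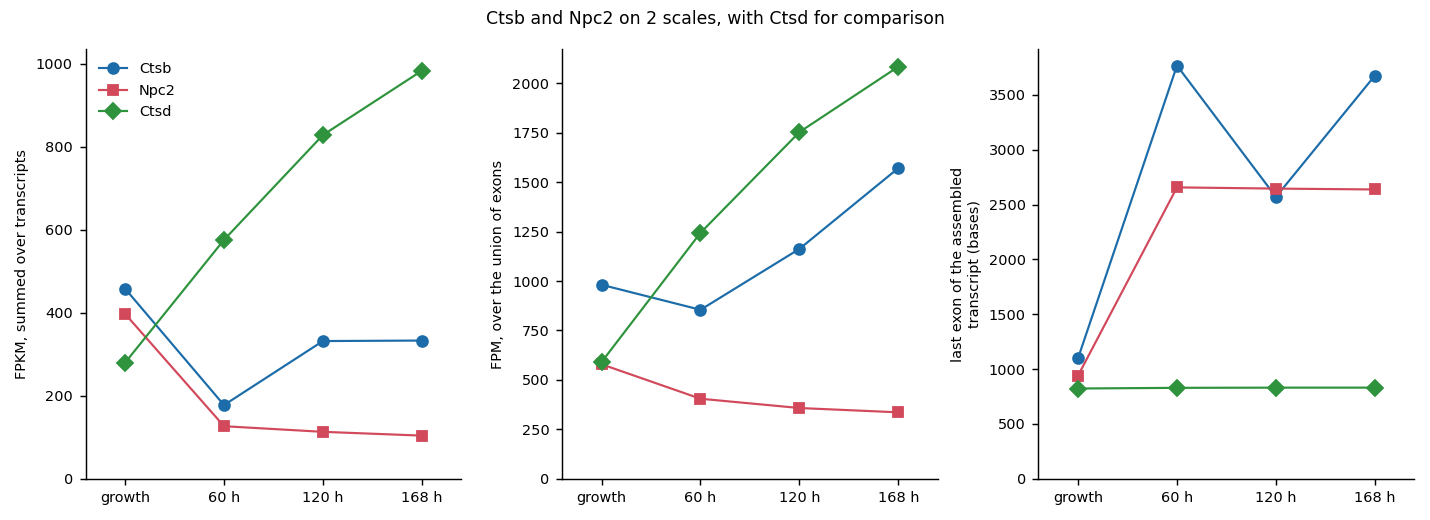
FPKM with the authors' limits (left), FPM (middle) and bases in the last exon of the main assembled transcript (right) in growth, at 60 h, at 120 h and at 168 h, for Ctsb, Npc2 and Ctsd. The last exon of Ctsd stays between 823 and 831 bases, that of Ctsb is 1100 bases in growth and 3768 at 60 h, and the 177 FPKM of Ctsb at 60 h stands beside 854 FPM at 60 h and 981 FPM in growth in the middle panel.

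The lumenal glycosidases and lipid-handling proteins had 4 of 6 members called higher at 168 h against growth, with a median log2 ratio of 1.18 over all 6. Gaa, the acid alpha-glucosidase that degrades lysosomal glycogen and is deficient in Pompe disease, had 25.9 ± 2.28, 56.8 ± 1.17, 68.0 ± 3.31 and 114 ± 1.73 FPKM in growth, at 60 h, at 120 h and at 168 h. At 168 h it was 4.40-fold above growth, with every interval apart, and 4.36-fold above it in fragments. Psap, the precursor of the saposins that help glycolipid breakdown, was the highest of the class from 60 h on, at 333 ± 7.66, 498 ± 7.44, 587 ± 18.6 and 747 ± 18.8 FPKM, and was called 2.24-fold higher at 168 h than in growth.

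Hexa, the alpha subunit of beta-hexosaminidase, had 66.4 ± 2.23, 96.6 ± 2.12, 119 ± 3.33 and 154 ± 2.79 FPKM, a called ratio of 2.32-fold at 168 h against growth. Neu1, the sialidase that works in the complex with Ctsa, had 8.78 ± 0.710, 19.1 ± 0.804, 37.3 ± 2.25 and 29.7 ± 1.06 FPKM and was called higher than in growth at 60 h, 2.18-fold, and at 168 h, 3.38-fold. The 120 h value of Neu1 included a second piece and a last exon of 715 bases, and through its introns the level was 29.6 FPKM at 120 h and 29.7 FPKM at 168 h. Glb1, the beta-galactosidase of the same complex, had 18.0 ± 1.03, 21.8 ± 0.877, 21.8 ± 1.23 and 25.1 ± 0.982 FPKM and was not called. The 3 proteins of that complex, Ctsa, Neu1 and Glb1, were thus 1.86-fold, 3.38-fold and 1.39-fold above growth at 168 h.

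The membrane proteins changed less than the lumenal ones, with a median log2 ratio of 0.45 at 168 h against growth and 1 of 4 called. Lamp1, a main glycoprotein of the lysosomal membrane, was the highest at 294 ± 4.36, 352 ± 3.51, 344 ± 4.56 and 402 ± 3.93 FPKM in growth, at 60 h, at 120 h and at 168 h, and 1.37-fold above growth at 168 h. Npc1, the membrane protein that exports cholesterol from the lysosome, had 7.31 ± 0.461, 11.1 ± 0.437, 12.1 ± 2.84 and 18.6 ± 0.604 FPKM and was called 2.55-fold higher at 168 h than in growth. Its partner Npc2 was therefore lower and Npc1 higher at 168 h against growth, with fragment ratios of 0.580 and 2.49. Mcoln1, the calcium channel of the lysosomal membrane, had 19.6 ± 1.11, 23.5 ± 0.968 and 26.4 ± 1.08 FPKM in growth and at 60 h and 168 h. At 120 h it had no transcript of its own: its introns were held by 2 transcripts of up to 6628 bases that were assigned to Pnpla6, and the FPKM through the introns there was 12.1, so the call of lower at 120 h against 60 h in the sum was absent by the introns.

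Lamp2, the second main glycoprotein of that membrane, kept a nearly level sum, at 39.1 ± 3.22, 47.4 ± 2.17, 55.9 ± 4.26 and 53.7 ± 3.96 FPKM, but its splice forms did not. Mouse Lamp2 has alternative last exons that encode different membrane anchors and tails. The annotated transcript Lamp2-201 encodes the LAMP-2A form, the receptor of chaperone-mediated autophagy, Lamp2-202 the LAMP-2B form and Lamp2-203 the LAMP-2C form, and the loss of Lamp2 causes Danon disease of heart and skeletal muscle. The last 36 coding bases before the stop codon, which tell the forms apart, are printed 5′ to 3′ in the sense of the gene from the GENCODE M21 transcripts (build GRCm38, minus strand), at chrX:38405435-38405470, chrX:38421715-38421750 and chrX:38402142-38402177 in the order of the names.
Lamp2-201: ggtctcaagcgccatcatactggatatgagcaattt
Lamp2-202: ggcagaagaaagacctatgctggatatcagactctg
Lamp2-203: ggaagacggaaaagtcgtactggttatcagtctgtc

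The Lamp2-201 form took 51.1%, 62.3%, 66.7% and 19.7% of the spliced Lamp2 FPKM in growth, at 60 h, at 120 h and at 168 h. The Lamp2-202 form took 48.9%, 37.7%, 33.3% and 0%. The Lamp2-203 form was not assembled in growth or at 60 h and 120 h and took 59.5% at 168 h, at 32.0 ± 3.03 FPKM. That form rested on 61 bases of its last exon, where the annotation has 925, so its distinguishing end was not covered. The remaining 20.8% at 168 h was a transcript with 9 introns that joined the last exon of Lamp2-202 onward to that of Lamp2-201, so 2 of the 3 junctions at the shared splice donor were also present at 168 h, at 10.6 ± 1.91 FPKM into the last exon of Lamp2-201 and 11.2 ± 1.68 FPKM into that of Lamp2-202. The assembled length of the Lamp2-202 last exon was 2041 bases at 60 h and 671 bases in growth.

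Of the 5 proton pump subunits 0 were called at 168 h against growth by the sum or by the introns, in either direction, and the median log2 ratio of 0.47 by the sum was 0.08 by the introns and 0.09 by the union of exons. Atp6v0a1, the large membrane subunit a1, had 13.9 ± 0.708, 23.8 ± 0.703, 26.0 ± 5.99 and 28.9 ± 4.89 FPKM in growth, at 60 h, at 120 h and at 168 h. At 168 h against growth its plain ratio was 2.07 and its log2 ratio of values raised by 1 was just under the threshold, and the union of exons called it higher. Atp6v0d1, the membrane subunit d1, had the highest level of the class, 71.4 ± 2.43, 86.0 ± 2.08, 86.6 ± 2.95 and 99.1 ± 2.35 FPKM, and a ratio of 1.39 at 168 h against growth.

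In the cytoplasmic sector of the pump, where ATP is cleaved, the 3 subunits differed. Atp6v1b2, a nucleotide-binding subunit, had 42.5 ± 1.48, 46.6 ± 1.19, 41.4 ± 1.57 and 44.8 ± 1.22 FPKM, a ratio of 1.05 at 168 h against growth. Atp6v1h, a regulatory subunit, was the 1 pump member with a lower level, at 33.4 ± 2.03, 28.5 ± 1.54, 24.1 ± 3.97 and 23.9 ± 1.40 FPKM, and its ratio of 0.715 at 168 h against growth was not called. Atp6v1a, the catalytic subunit A, depended on the measure. Its sum was 19.7 ± 3.002, 17.7 ± 2.53, 33.0 ± 3.83 and 36.6 ± 3.05 FPKM, while through the introns it had 19.7, 17.7, 19.1 and 20.8 FPKM, because at 120 h and 168 h the last exon was split into a separate piece. On the fragment scale it had 74.1 FPM at 168 h and 82.3 FPM in growth.

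**Figure D3:**
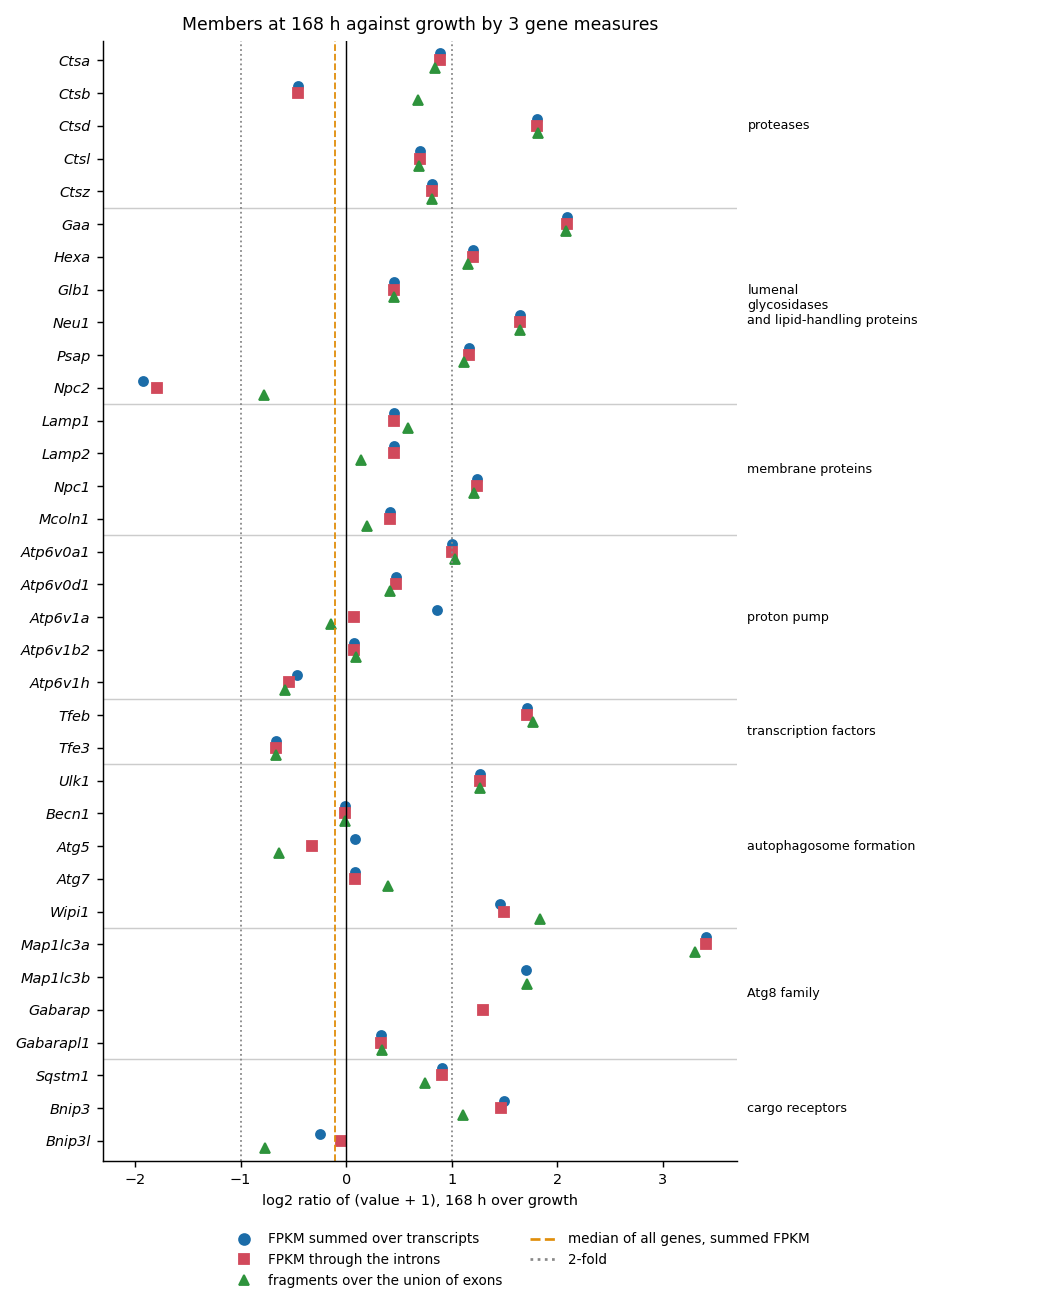
Log2 ratio at 168 h over growth of each member (rows, grouped by class) by summed FPKM (circles), FPKM through the introns (squares) and fragments over the union of exons (triangles), each with 1 added to both values. Dotted lines mark 2-fold and the dashed line the median of all genes, -0.11. Gaa lies at 2.09 and Map1lc3a at 3.40 by the sum, the 3 measures part most in Ctsb, Npc2, Atp6v1a and Atg5, and no sum is drawn for Gabarap, which had no transcript of its own in growth.

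Of Tfeb and Tfe3, the pair of related transcription factors, Tfeb was called higher and Tfe3 was not called at any step. Tfeb had 4.85 ± 0.558, 8.25 ± 0.548, 9.93 ± 0.859 and 18.2 ± 0.853 FPKM in growth, at 60 h, at 120 h and at 168 h, all from 1 assembled splice form, Tfeb-202. It was 3.75-fold higher at 168 h than in growth. Tfe3 had 30.03 ± 3.16, 17.8 ± 0.674, 15.0 ± 0.868 and 18.6 ± 0.981 FPKM, with ratios of 0.594 at 60 h and 0.618 at 168 h against growth, and it was 1.24-fold higher at 168 h than at 120 h. In growth Tfe3 stood well above Tfeb, 30.03 against 4.85 FPKM, and at 168 h their intervals overlapped.

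The promoters of the members were searched for the letters that these factors are known to bind. Windows of 250 bases before to 50 bases after the start were taken from RefSeq (GRCm38.p6), which held 32 windows for 27 of the 34 members. Atp6v1h, Bnip3l, Atp6v1b2, Becn1, Ctsb, Npc1 and Map1lc3a had no entry. The core CACGTG, which reads the same on both strands, occurred in 12 of 32 member windows (37.5%) and in 7.15% of all 32851 windows. The longer palindrome TCACGTGA, which contains that core, occurred in 5 member windows (15.6%) and in 0.974% of all windows, and the same palindrome with G before and C after it in 0 member windows and 0.326% of all. A match is a string of letters and not a measured binding site.

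The 5 windows with TCACGTGA are shown around the match because they belong to members of 3 different classes, in the sense of each gene and with the palindrome in capitals. They lie at chr2:164833745-164833799 (plus strand) for Ctsa, chr7:142387904-142387941 (minus strand) for Ctsd, chr8:3500458-3500495 (plus strand) for Mcoln1, chr8:105566046-105566083 (minus strand) for Atp6v0d1 and chr16:44139369-44139406 (minus strand) for Atp6v1a. Lamp1 had 4 copies of the core within 52 bases just before its start, at chr8:13159085-13159166 (plus strand), shown last with the cores in capitals.
Ctsa: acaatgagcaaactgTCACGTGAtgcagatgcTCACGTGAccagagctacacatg
Ctsd: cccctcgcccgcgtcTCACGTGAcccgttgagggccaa
Mcoln1: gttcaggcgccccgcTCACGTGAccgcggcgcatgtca
Atp6v0d1: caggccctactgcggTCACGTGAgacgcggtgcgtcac
Atp6v1a: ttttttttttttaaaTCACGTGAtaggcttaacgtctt
Lamp1: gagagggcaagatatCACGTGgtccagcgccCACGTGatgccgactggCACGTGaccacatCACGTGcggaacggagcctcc

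Members with TCACGTGA did not share a size of change. At 168 h against growth Ctsd was 3.51-fold, Ctsa 1.86-fold, Atp6v1a 1.86-fold (1.06-fold through the introns), Atp6v0d1 1.39-fold and Mcoln1 1.35-fold, and 1 of the 5 was called. Lamp1, with 4 cores, was at 1.37-fold. The other members with the core were Gaa, Glb1, Ctsl, Atg5, Atg7 and Bnip3. Hexa, Neu1, Psap, Tfeb, Ulk1, Wipi1, Map1lc3b and Gabarap were called higher and had windows in the table, none of them with the core.

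Genes of autophagosome formation were mixed, with 2 of 5 called higher at 168 h against growth and a median log2 ratio of 0.09. Ulk1, the kinase that starts the process, had 9.63 ± 0.510, 13.3 ± 1.18, 16.96 ± 0.729 and 24.5 ± 1.79 FPKM in growth, at 60 h, at 120 h and at 168 h, and was called 2.55-fold higher at 168 h than in growth. Wipi1, which binds the lipid made on the growing membrane, had 25.9 ± 2.22, 45.6 ± 2.04, 91.0 ± 4.18 and 72.8 ± 2.93 FPKM, with a called ratio of 2.81 at 168 h against growth. The peak of Wipi1 at 120 h was absent on the fragment scale, where 168 h had 167 FPM and 120 h had 163 FPM.

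The other members of that class were not called at 168 h against growth. Becn1, a subunit of the lipid kinase complex, had 43.3 ± 1.73, 54.0 ± 1.49, 50.4 ± 2.02 and 42.9 ± 1.39 FPKM, a ratio of 0.991 at 168 h against growth. Of its 50-base words 36.8% also occur in other annotated genes, most often Cntd1, so some of its fragments could belong there. Atg5, part of the enzyme that attaches lipid to Atg8 proteins, had 10.3 ± 1.44, 8.21 ± 0.540, 9.49 ± 1.37 and 10.97 ± 1.59 FPKM in the sum, and through the introns 10.3, 8.21, 6.26 and 8.005 FPKM. On the fragment scale Atg5 had 14.3 FPM at 168 h and 23.5 FPM in growth, a ratio of 0.607. Atg7, the activating enzyme of the same reaction, had 5.08 ± 0.550 FPKM in growth and 5.44 ± 0.402 FPKM at 168 h. No transcript with an Atg7 intron was assembled at 60 h or 120 h, so the calls of lower at 60 h against growth and higher at 168 h against 120 h rest on absence from those files.

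Of the Atg8 family 3 of 4 were called higher at 168 h against growth, with a median log2 ratio of 2.55 by the sum and 1.29 by the introns. The median by the sum includes Gabarap at 7.57, a value that rests on the lack of a transcript of its own in growth. Of the members with a transcript of their own in both libraries, Map1lc3a had the largest log2 ratio by the sum, 3.40. Map1lc3a, which encodes LC3A, had 47.4 ± 2.67, 168 ± 5.75, 369 ± 17.05 and 511 ± 15.0 FPKM in growth, at 60 h, at 120 h and at 168 h, with every interval apart. It was called 3.55-fold higher at 60 h and 10.8-fold higher at 168 h than in growth, and 2.19-fold higher at 120 h than at 60 h. On the fragment scale the ratio at 60 h against growth was 5.69 and that at 168 h against growth 10.2, while at 120 h against 60 h it was 1.28 and not called. The last exon was 604, 1181, 612 and 612 bases in growth, at 60 h, at 120 h and at 168 h. Map1lc3b, which encodes LC3B, the usual marker of autophagosomes, had 28.2 ± 1.65, 52.6 ± 1.67, 76.0 ± 2.91 and 93.9 ± 2.42 FPKM and was called 3.33-fold higher at 168 h than in growth. That value comes from the end of the gene alone: in 3 libraries it was 1 exon of 1452 to 1468 bases, and an intron of Map1lc3b was assembled only at 60 h.

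The Map1lc3a increase came with a different start. In growth the gene was assembled as 1 form with 3 introns, Map1lc3a-201. At 60 h, 120 h and 168 h a form with 2 introns and a later start, Map1lc3a-203, stood beside it and took 66.3%, 61.8% and 60.9% of the spliced FPKM. Map1lc3a-203 had 112 ± 4.64, 228 ± 13.5 and 311 ± 12.02 FPKM in those libraries. The Map1lc3a-201 form had 47.4 ± 2.67, 56.6 ± 3.41, 141 ± 10.4 and 199.8 ± 9.04 FPKM in growth, at 60 h, at 120 h and at 168 h, so it too was higher at 168 h.

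The other 2 members of the family belong to its GABARAP branch. Gabarap had 186 ± 2.93, 212 ± 4.98 and 189 ± 3.03 FPKM at 60 h, 120 h and 168 h and no transcript of its own in growth. Its introns were present in growth in a transcript of 4805 bases assigned to the neighbouring Ctdnep1, and through the introns Gabarap had 189 FPKM at 168 h against 76.6 FPKM in growth, a called ratio of 2.47. The growth value is that of the joined transcript and the 168 h value that of a Gabarap transcript of 1886 bases. The ratio is therefore not a measure of Gabarap alone. Gabarapl1 had 54.2 ± 2.06, 41.9 ± 1.39, 48.4 ± 2.10 and 68.5 ± 1.87 FPKM, was lowest at 60 h and was not called at any step. Sharing of 50-base words with the annotated gene 1700101I11Rik reached 23.1% for Gabarapl1, so some of its fragments could belong there.

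Among the cargo receptors Sqstm1, the p62 protein that links ubiquitin to the Atg8 proteins, was by far the highest, at 378 ± 6.56, 433 ± 7.34, 504 ± 15.6 and 711 ± 14.1 FPKM in growth, at 60 h, at 120 h and at 168 h. Its ratio of 1.88 at 168 h against growth was not called. The form Sqstm1-201, which uses another donor for the last intron, took 12.2%, 21.5%, 24.2% and 22.9% of its spliced FPKM. The mitophagy receptors Bnip3 and Bnip3l were assembled in pieces and their values are uncertain: 47.2% of the 50-base words of Bnip3 and 20.8% of those of Bnip3l also occur in other annotated genes.

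Bnip3 had 3.29 ± 1.92, 0.973 ± 0.246, 9.21 ± 1.45 and 11.1 ± 2.11 FPKM, and was called 3.37-fold higher at 168 h than in growth. In FPM it had 0.578, 1.30, 8.24 and 3.30, so the call of lower at 60 h against growth turned to the other direction on that scale. Bnip3l had 13.3 ± 1.68, 10.02 ± 1.08, 23.3 ± 2.63 and 11.05 ± 1.40 FPKM in the sum. Through its introns it had 5.75, 5.01, 6.97 and 5.52 FPKM, and neither its call of higher at 120 h against 60 h nor its call of lower at 168 h against 120 h was present there.

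A change of splice form was read where the share of an intron chain shifts by 30 percentage points or more between libraries with intervals apart. Of the 34 members, 33 had at least 5 FPKM of spliced transcripts in both libraries of some comparison, and 9 of them passed, against 39.7% of the 7938 genes with such levels: Ctsa, Lamp2, Mcoln1, Atp6v0a1, Atp6v1h, Wipi1, Map1lc3a, Bnip3 and Bnip3l. With a limit of 20 percentage points 11 members passed, against 47.7% of those genes. The shifts of Bnip3 and Bnip3l are among partial pieces. That of Mcoln1 is 1 extra intron at its end in growth, with a last exon of 39 bases. The others join annotated splice sites, apart from an intron of 2121 bases in forms of Atp6v1h and an intron of 16069 bases in 1 form of Lamp2. Those forms match no annotated transcript. 1 of the Atp6v1h forms took 36.1% of the spliced Atp6v1h FPKM at 60 h.

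In the proton pump 2 subunits were of this kind. Atp6v0a1 differed by a segment of 21 bases that is in Atp6v0a1-203 and was present in 0%, 100%, 61.7% and 56.4% of the spliced FPKM in growth, at 60 h, at 120 h and at 168 h. In growth and at 60 h only 1 form was assembled. The limits of the share were 45.4% to 78.0% at 120 h and 44.4% to 68.4% at 168 h. The segment is printed in capitals between the neighbouring bases of the spliced transcript, and lies at chr11:101026660-101026680 of GRCm38 (plus strand, GENCODE M21). Its length is a multiple of 3, so it keeps the reading frame.
Atp6v0a1: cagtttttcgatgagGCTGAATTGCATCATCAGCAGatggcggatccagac

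Atp6v1h differed by an exon that was skipped by an intron of 19256 bases in the files. Skipping took 15.5%, 63.9%, 37.4% and 74.6% of the spliced Atp6v1h FPKM in growth, at 60 h, at 120 h and at 168 h, so each later library was above growth, and the share was highest at 168 h. In FPKM the skipping junction had 17.8 at 168 h and 5.20 in growth, and the junction into the exon 6.07 at 168 h and 28.2 in growth. Both subunits thus passed the rule for splice forms while their summed level was not called. The members passed that rule less often than all genes did.

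Wipi1 and Ctsa made up the rest. Wipi1-202, the form that extends past the last splice donor of Wipi1-201, took 57.0%, 28.8%, 78.8% and 45.1% of the spliced FPKM in growth, at 60 h, at 120 h and at 168 h, with no steady direction. Ctsa-202, which leaves its first exon at another donor, was not assembled in growth and took 24.4%, 31.6% and 41.3% at 60 h, 120 h and 168 h. For Psap, whose transcripts are known to differ by a short alternative segment, the assembled forms differed by 3 bases at 1 splice acceptor, and the shorter form took 7.46%, 6.46%, 11.1% and 11.99%, which passed no rule.

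**Figure D4:**
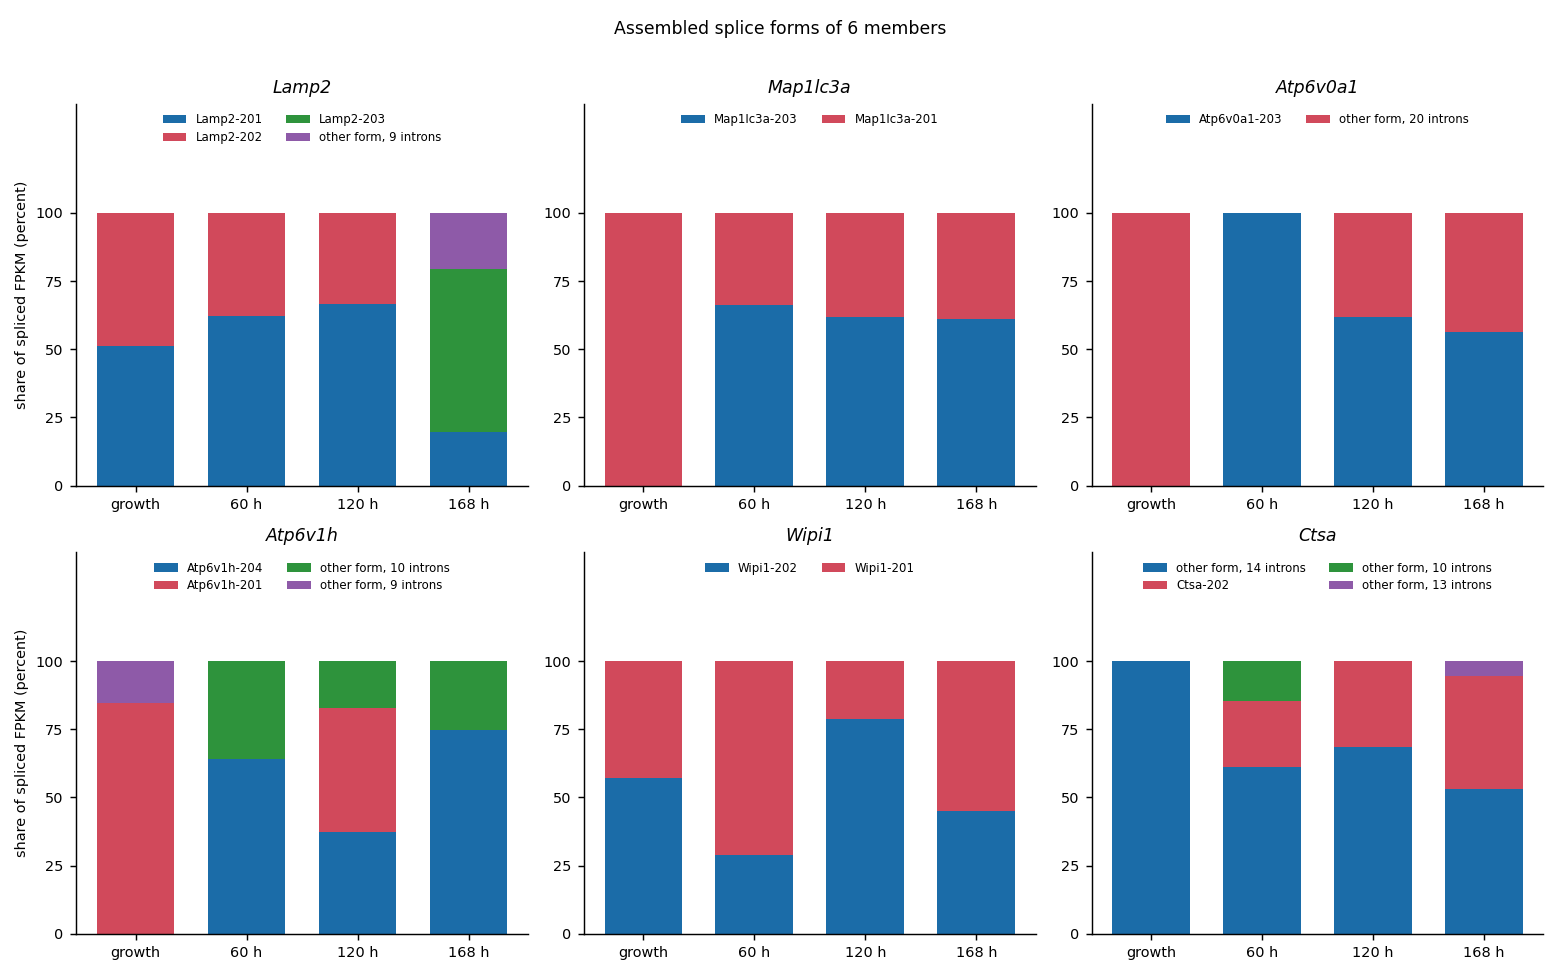
Share of spliced FPKM (vertical axis, percent) taken by each assembled splice form of Lamp2, Map1lc3a, Atp6v0a1, Atp6v1h, Wipi1 and Ctsa in growth, at 60 h, at 120 h and at 168 h, with 1 library per bar and forms named by the annotated transcript that has the same introns. Lamp2-203 appears only at 168 h, with 59.5%, and Map1lc3a-203 is absent in growth and takes 60.9% at 168 h.

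Other genes of the pathway were read from 6 lists of 146 further genes. At 168 h against growth 134 were measured, 29 were called higher and 7 lower by the sum, and 28 higher and 3 lower by both measures. For all genes the shares were 15.6% and 18.6% by the sum and 11.2% and 13.5% by both measures. The lysosomal hydrolases had 13 of 30 measured called higher, 2 lower and a median log2 ratio of 0.86. Of 39 measured autophagosome genes 8 were called higher and 1 lower, with a median of 0.20, and of 25 nutrient-sensing genes 3 higher and 2 lower, with a median of 0.27. Of 13 further pump genes 1 was called higher and 0 lower, median 0.40, of 16 lysosome membrane genes 2 higher and 1 lower, median 0.43, and of 11 sorting genes 2 higher and 1 lower, median 0.19.

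Among the genes that the naming rule took from these lists, Calcoco1, an autophagy receptor of the reticulum, had 20.6 ± 1.02, 77.8 ± 1.52, 94.8 ± 2.41 and 118 ± 2.01 FPKM in growth, at 60 h, at 120 h and at 168 h. Naglu, which degrades heparan sulfate, had 7.97 ± 1.39, 10.997 ± 0.612, 12.8 ± 0.924 and 30.6 ± 1.07 FPKM. Both were highest at 168 h. Ctns, the cystine exporter, had 3.69 ± 0.456, 8.55 ± 0.528, 9.63 ± 0.791 and 12.1 ± 0.649 FPKM. Ctsf, a cysteine protease, had 0.829 ± 0.627, 2.71 ± 0.344, 9.80 ± 1.46 and 6.34 ± 0.548 FPKM. Dnase2a, the acid nuclease, was uneven across measures, with 9.42 ± 0.751 FPKM at 168 h against 4.01 ± 0.397 FPKM at 120 h in the sum but 3.06 and 3.56 FPKM over the union of exons.

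The named genes left over were decided by absence or by assembled length. Atp6v1g1, a pump subunit, had 47.5 ± 2.51, 21.03 ± 4.31, 57.6 ± 3.02 and 43.9 ± 1.90 FPKM in the sum but 15.3, 17.6, 15.4 and 12.4 FPKM over the union of exons. Vps41, a tethering protein of late endosomes, was not assembled in growth and had 15.3 ± 0.631, 11.8 ± 0.775 and 10.9 ± 0.561 FPKM at 60 h, 120 h and 168 h. Stx17, the fusion protein of autophagosomes, was assembled only at 120 h, at 4.38 ± 0.555 FPKM, and Rragb, a nutrient-sensing GTPase, only in growth, at 1.34 ± 0.892 FPKM. Mtor, the kinase that restrains Tfeb and Ulk1, had 10.5 ± 0.416, 15.3 ± 0.385 and 21.6 ± 0.481 FPKM in growth and at 60 h and 168 h and was not assembled at 120 h.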

How the data were processed

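Per the labels' protocols, polyadenylated RNA was broken by heat, primed with random hexamers and sequenced as paired ends, with no marking of strand described. The authors deposited assembled transcripts of each library with an RPKM per transcript, called FPKM here, and its confidence limits. The submitters' processing notes name TopHat 1.0.13 and Cufflinks 0.8.0. The build of the genome was not given in the sources used here, so gene coordinates are printed as in the files. A deposited score per transcript was left unused. Library sizes were computed from the distance between value and limit.

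Introns were named by runs of exon and intron lengths in GENCODE M21 (GRCm38): 122478 of 137519, and 5348 more by their own length between named neighbours. Single-exon transcripts counted to a gene with at least 50% overlap. Limits were added in quadrature. For the FPKM through the introns, the FPKM of all transcripts holding an intron was summed, and the median was taken over the gene. No p-value can be had with 1 library per time. Python 3.11.15, numpy 2.4.6 and matplotlib 3.10.9 were used. Alternatives were both other measures, a pseudocount of 0.1, no minimum, median-ratio scaling and a limit of 20 percentage points on splice forms. All members were named; from each further list, up to 4 genes called by both measures at 60 h against growth, taken by size of ratio, and up to 2 at each later step. A gene that this rule named is not reported here. The members, lists and rules were chosen with earlier results of these data known.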

Additional observations from a re-analysis of the deposited data

Results flagged for a closer look

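Transcripts left without a gene name lay over 4 members, each above the level that 3 fragments would give. On the strand opposite to Ctsd, a transcript with 2 exons near its end had 34.8 FPKM in growth, 26.8 FPKM at 60 h and 18.7 FPKM at 168 h, and another at 168 h had 39.8 FPKM. Opposite to Lamp2, a transcript with 2 exons had 8.40 FPKM in growth, 5.36 FPKM at 60 h, 4.99 FPKM at 120 h and 11.9 FPKM at 168 h. Opposite to Tfeb, one had 0.589 FPKM in growth, where 3 fragments would give 0.516 FPKM, and one had 0.929 FPKM at 168 h. On the strand of Atg7 and overlapping its end, a transcript with 2 exons had 12.97 FPKM in growth, above the 5.08 FPKM of Atg7 itself there. The protocol marks no strand, so whether these fragments belong to the members cannot be told apart, and their part in the values of the members was not tested.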

How the results depend on the processing

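Of 136 ratios, 30 of them called, 136 stayed called or not called as before with no minimum, and 135 with a pseudocount of 0.1. By fragments over the union of exons 128 did, with median-ratio scaling 125, and through the introns 128, where 4 lost their call. Ratios that were not called could change sign and still count here. Under median-ratio scaling 2 members changed sign at 60 h against growth and 5 at 120 h against 60 h. At 168 h, 4 did so against 120 h and 1 against growth. By fragments over the union of exons, 1 member was lower at 60 h against growth, 1 higher at 120 h against 60 h, 0 lower at 168 h against 120 h and 0 lower at 168 h against growth. Through the introns, 0 were lower at 120 h against 60 h and 0 lower at 168 h against 120 h. Median-ratio scaling called 7 higher and 3 lower at 60 h against growth, 1 higher and 1 lower at 120 h against 60 h, 2 higher and 0 lower at 168 h against 120 h, and 18 higher and 1 lower at 168 h against growth; it moved the all-gene median to 0.02 at 60 h against growth, where it was -0.18. Of the called log2 ratios, those of Bnip3 at 60 h against growth (0.38) and Bnip3l at 120 h against 60 h (-0.11) turned round by the union of exons. Several ratios that were not called turned round as well, among them Ctsb at 168 h against growth (-0.46 by the sum, 0.68 by the union). Lamp2 at 120 h against 60 h (0.23 and -0.38) was another. Called or near-called ratios that changed side under some setting were those of Ctsa, Ctsb, Ctsz, Npc2, Mcoln1, Atp6v0a1, Atp6v1a, Wipi1, Map1lc3a, Map1lc3b, Sqstm1, Bnip3 and Bnip3l. With a limit of 20 percentage points 11 members changed splice form, against 47.7% of the genes read in this way. The cause of these differences was not tested beyond the construction of each measure. No paired analysis was possible because each time has 1 library, and for the same reason no library could be left out. Depth limits the low members most, and the 120 h library held the fewest fragments.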
